A study of Mus musculus with 24 samples.

Results

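Hand1 and Hand2, the 2 Hand transcription factor genes of the mouse, and Hand2os1 and Hdnr, long noncoding RNA genes on either side of Hand2, were followed through 24 RNA-seq libraries of mouse dental mesenchyme. They are 4 of the 56748 genes in the table and were chosen on their measured levels, as genes that earlier results of these data placed in the lingual part of the tooth germ, so their lingual to buccal differences are given here as a description, without a test. The study asked how far the lingual side of the tooth germ and the buccal side differ in their capacity to form a tooth. First mandibular molar germs of ICR mouse embryos were taken at E13 for the cap stage and at E15 for the bell stage, and the mesenchyme was freed with dispase II. There were 8 groups of 3 libraries. Cap-W and Bell-W were the undivided mesenchyme, Cap-L, Cap-B, Bell-L and Bell-B were the lingual (L) and buccal (B) parts, while the parts kept in vitro for 2 days from the cap stage were Cap-L+2D (lingual) and Cap-B+2D (buccal). All embryos were of the ICR stock, with no other genotype given for these libraries. The methods name 36 embryos from 3 pregnant mice in all, and state both triplicate sequencing and 2 biological replicates. Which libraries share a litter is not given in the sources used here, so the p-values measure the spread between these libraries, which may be technical in part.

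HAND proteins are basic helix-loop-helix (bHLH) factors that bind E-box DNA as dimers with E proteins or with Twist1. In the mandibular arch, Hand2 is known to act downstream of endothelin-1, its receptor Ednra and the homeobox factors Dlx5 and Dlx6, and it marks the distal part of the arch. Hand2os1, also called upperhand, is transcribed divergently from Hand2, and Hdnr, also called handsdown, lies downstream of Hand2. Both RNAs are known from work on the heart.

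In the deposited GRCm39 annotation, Hand2 (ENSMUSG00000038193) spans 57774018 to 57777668 on the plus strand of chromosome 8. Hand2os1 (ENSMUSG00000100510) runs from 57734152 to 57777268 on the minus strand, and thus across most of Hand2. The genes share 461 exon bases, which are 19.6% of the exon bases of Hand2. Hdnr (ENSMUSG00000097910) spans 57785152 to 57832375 on the plus strand and begins 7483 bases beyond the end of Hand2. Of its exon bases, 10.6% are shared with Gm34030, an antisense gene. Hand1 (ENSMUSG00000037335) lies elsewhere, at 57719531 to 57723644 on the minus strand of chromosome 11, and shares no exon base with another gene. Hand2os1 also shares 533 exon bases with Gm17994, a gene on the same strand. Reads were counted without regard to strand, so reads of Hand2 and Hand2os1, or of Hdnr and Gm34030, cannot be told apart by strand where these genes overlap. Reads shared between genes were not counted, so reads of the shared exon bases are missing from both genes.

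The promoter windows show how Hand2 and Hand2os1 face each other. They come from RefSeq on GRCm38.p6, an older build than that of the counts, and run from 250 bases before each start to 50 bases after it. Of the 4 genes, 2 were in that table. The Hand2 window is chr8:57320733-57321032 on the plus strand and the Hand2os1 window is chr8:57320810-57321109 on the minus strand. They overlap over 223 bases, and the RefSeq start of Hand2os1 lies 124 bases upstream of that of Hand2, on the other strand. Capitals mark the E-box CANNTG, the homeobox core TAATTA and the GC box GGGCGG, on either strand.
Hand2: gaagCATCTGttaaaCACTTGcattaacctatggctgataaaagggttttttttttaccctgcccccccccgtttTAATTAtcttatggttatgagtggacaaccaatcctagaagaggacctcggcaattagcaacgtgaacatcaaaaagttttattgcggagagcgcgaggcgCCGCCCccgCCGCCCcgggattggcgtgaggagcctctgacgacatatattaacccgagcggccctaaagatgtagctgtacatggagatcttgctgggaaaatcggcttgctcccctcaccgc
Hand2os1: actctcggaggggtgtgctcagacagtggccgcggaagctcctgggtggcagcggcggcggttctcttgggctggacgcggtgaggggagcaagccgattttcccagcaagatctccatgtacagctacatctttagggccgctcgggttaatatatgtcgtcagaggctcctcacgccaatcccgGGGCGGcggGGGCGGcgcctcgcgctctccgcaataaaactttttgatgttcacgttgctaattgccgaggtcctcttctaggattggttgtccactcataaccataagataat
The Hand2 window held a pair of E-boxes, at -246 and -235 from the start, and a TAATTA at -175. The E-box at -246 is also a match to CATCTG, an E-box form that HAND dimers are known to bind. A pair of GC boxes stood at -74 and -65 on the minus strand of the Hand2 window, and the same pair was read at -64 and -55 on the plus strand of the Hand2os1 window. No TATAAA was found in either window, and the Hand2os1 window held none of the E-boxes or TAATTA. Over 32851 RefSeq promoter windows of this length, 72.3% held CANNTG, 17.2% CATCTG, 5.29% TAATTA, 13.6% TATAAA and 35.7% GGGCGG. These matches are descriptions of the letters, not sites of binding.

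The libraries held 20581720 to 39266497 counts, with a median of 27677164. Levels are counts per 1000000 reads (CPM) scaled by TMM, edgeR's correction for library composition. A library was read as at the floor when it held 3 counts or fewer, which is 0.0764 to 0.146 CPM before scaling. Markers of dental mesenchyme were present in all groups, and 7 of 10 did not pass the call between sides at the cap stage. Markers of other cell types were present too, and their values are given beside the side differences. In bulk samples, fewer cells of a type and less RNA per cell cannot be told apart.

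Hand2 was higher in the lingual part throughout. At the cap stage, Cap-L held 7.06, 7.12 and 7.87 CPM and Cap-B held 0.361, 0.502 and 0.434 CPM. At the bell stage, Bell-L held 1.87, 3.09 and 2.69 CPM against 0.0328, 0 and 0.166 CPM in Bell-B. The cultured lingual part held 11.4, 12.6 and 10.7 CPM and the cultured buccal part 0.873, 0.703 and 0.670 CPM. The lingual libraries were above the buccal libraries in each of the 3 settings, with no overlap. The ratio of the pooled lingual to buccal CPM was 16.9 at the cap stage (95% exact interval 11.8 to 25.1), 37.9 at the bell stage (17.1 to 104) and 15.2 in culture (11.9 to 19.6). These intervals cover counting error only. All but 1 of the 6 counts of Hand2 in Bell-B came from replicate 3. Without that library, the log2 fold change of buccal over lingual at the bell stage went from -5.16 to -6.90 for Hand2, from -6.74 to -8.57 for Hand2os1 and from -2.54 to -3.59 for Hdnr.

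Hand2 had its highest mean in Cap-W, 15.3 ± 17.2 CPM (SD, n = 3), where the libraries ran from 2.97 to 35.0 CPM. It was followed by Cap-L+2D at 11.5 ± 0.977, Cap-L at 7.35 ± 0.449, Bell-L at 2.55 ± 0.623, Cap-B+2D at 0.749 ± 0.109, Cap-B at 0.432 ± 0.0705, Bell-B at 0.0663 ± 0.0880 and Bell-W at 0.0106 CPM. The place of Cap-W rests on replicate 2, as its other libraries held 2.97 and 7.93 CPM, below every Cap-L+2D library (10.7 to 12.6 CPM). In this order only Cap-W and Cap-L+2D, and Bell-B and Bell-W, overlapped with their neighbour. The order is a description, as its steps from lingual to buccal groups drew on the values that chose the gene. How often other genes separate the groups in this way is not given here. Hand1 was not part of this pattern. It was at or under 3 counts in all libraries outside Cap-W and stayed below the low-count filter in every comparison of the parts.

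**Figure D1:**
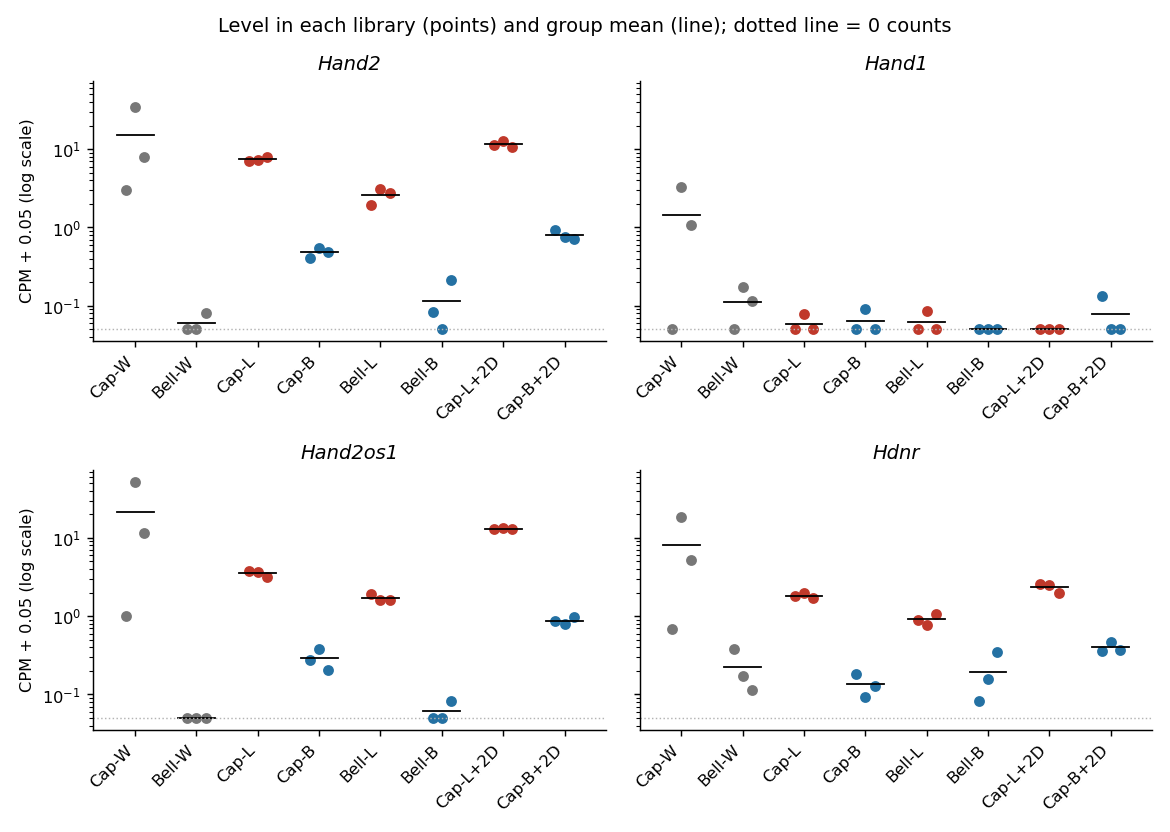
CPM plus 0.05 on a log axis for each of the 24 libraries (points; grey undivided, red lingual, blue buccal) with the group mean (line) of Hand2, Hand1, Hand2os1 and Hdnr. The red points of Hand2 lie above the blue points at each stage and in culture, and Hand1 rises above the others only in 2 Cap-W libraries.

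Hand2os1 followed the same sides. Cap-L held 3.78, 3.59 and 3.14 CPM and Cap-B 0.225, 0.334 and 0.158 CPM. Bell-L held 1.87, 1.56 and 1.56 CPM, while Bell-B held 0, 0 and 1 count. In culture the lingual part held 12.8, 13.4 and 12.8 CPM and the buccal part 0.817, 0.739 and 0.926 CPM. Again no lingual library overlapped a buccal one. The pooled ratio of lingual to buccal was 14.7 at the cap stage (9.07 to 25.6) and 15.6 in culture (12.4 to 19.9). At the bell stage it was 147, with an interval from 25.97 to 5850 that reflects the single count in the 3 Bell-B libraries.

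Hdnr was higher on the lingual side too. Cap-L held 1.76, 1.94 and 1.66 CPM and Cap-B 0.135, 0.0418 and 0.0788 CPM, or 6 counts in all. Bell-L held 0.839, 0.728 and 1.03 CPM and Bell-B 0.0328, 0.107 and 0.299 CPM. The cultured parts held 2.54, 2.42 and 1.94 CPM on the lingual side and 0.310, 0.422 and 0.319 CPM on the buccal side. The lingual libraries lay above the buccal ones each time. The ratio was 21.4 (9.63 to 59.2) at the cap stage, 5.94 (3.27 to 11.7) at the bell stage and 6.52 (4.49 to 9.73) in culture. Of the 13 Hdnr counts in Bell-B, 9 came from replicate 3. The share of all tested genes called higher on the lingual side was 7.10% at the cap stage, 6.88% at the bell stage and 12.5% in culture. The 3 genes of the locus were chosen for that difference, so the lack of overlap between their sides is no support for it. The share of all genes without such overlap is not given here.

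**Figure D2:**
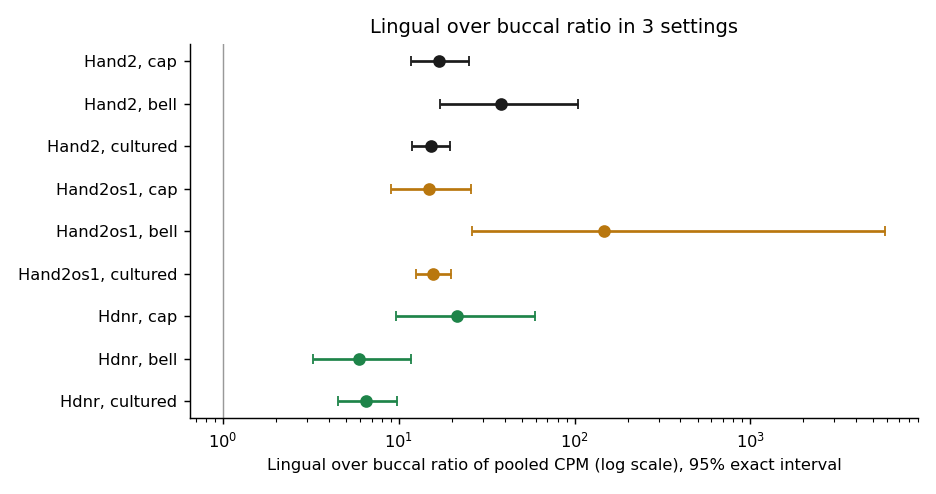
Lingual over buccal ratio of pooled CPM (log axis) with 95% exact intervals, for Hand2, Hand2os1 and Hdnr in the cap stage, bell stage and cultured parts. All 9 ratios lie above 1, from 5.94 for Hdnr at the bell stage to 147 for Hand2os1 at the bell stage.

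Per kilobase of exon length, Hand2 was the most abundant of the 3 RNAs in the cap stage and cultured lingual parts. In Cap-L the levels per length were 3.13 ± 0.191 CPM per kb for Hand2, 0.250 ± 0.0235 for Hand2os1 and 0.135 ± 0.0106 for Hdnr (SD, n = 3). In Cap-L+2D they were 4.91 ± 0.416, 0.928 ± 0.0239 and 0.174 ± 0.0239 CPM per kb. With only the exon bases that no other gene shares as the length, Hand2 in Cap-L came to 3.89 CPM per kb. The order of the 3 RNAs in these 2 groups was the same on both lengths. It was another in Bell-W, where Hdnr had 0.0131 and Hand2 0.00452 CPM per kb. Those values rest on 14 Hdnr counts and 1 Hand2 count over the 3 libraries, with Hand2 at the floor in each. In every other group Hand2 had the highest mean per kb of the 3 RNAs.

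All 3 RNAs of the locus fell between the stages on the lingual side. The genes were chosen with earlier results of these data known. The p-values of the stage and culture comparisons are therefore not fully independent of that choice. In the log2 fold change of bell over cap, Hand2 fell by 1.50 (SE 0.13, edgeR adjusted p = 7.03e-10). Hand2os1 fell by 1.06 (SE 0.14, adjusted p = 5.61e-07) and Hdnr fell by 1.03 (SE 0.20, adjusted p = 0.000176). The Bell-L libraries lay below the Cap-L libraries for each gene. Of all genes tested in the lingual part, 5.78% were called lower at the bell stage. With all 24 libraries in 1 fit, the calls of Hand2os1 (adjusted p = 0.304) and Hdnr (adjusted p = 0.266) were lost, also without Cap-W replicate 2 (0.0908 and 0.111). From Cap-L to Bell-L the median summed level went from 17.1 to 111 CPM for the skeletal muscle markers, from 57.1 to 188 CPM for the macrophage markers and from 2994 to 6461 CPM for the erythroid markers. Their part in the stage differences was not tested. A gene was called when its adjusted p was below 0.05 and its log2 fold change exceeded 0.5 in either direction.

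In the buccal part, Hand2 and Hand2os1 also fell between the stages, from a level that was low at the cap stage. Cap-B held 31 Hand2 counts in all and Bell-B held 6. On the log2 scale, the level at the bell stage was lower by 2.61 for Hand2 (SE 0.57, edgeR adjusted p = 0.00026) and by 3.96 for Hand2os1 (SE 0.86, adjusted p = 0.000259). Hand2os1 held 17 counts in Cap-B and 1 in Bell-B, and it passed the low-count filter of this fit through Cap-B+2D. Of all genes tested there, 6.73% were called lower at the bell stage. Of the 6 Bell-B counts of Hand2, 5 came from replicate 3. The Hand2 value was -4.36 without that library and -2.09 without Bell-B replicate 2. With all 24 libraries in 1 fit, the calls of Hand2 (adjusted p = 0.169) and Hand2os1 (adjusted p = 0.358) were lost, the first restored without Cap-W replicate 2 (0.00707) and the second not (0.107). The skeletal muscle markers summed to a median of 215 CPM in Cap-B and 799 CPM in Bell-B, and their part was not tested. Hdnr stayed below the low-count filter in the buccal fit. Its Cap-B and Bell-B libraries overlapped.

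After 2 days of culture, Hand2os1 and Hand2 rose in both parts. In the lingual part, the log2 fold change of Cap-L+2D over Cap-L was 1.88 for Hand2os1 (SE 0.095, edgeR adjusted p = 5.81e-15) and 0.64 for Hand2 (SE 0.10, adjusted p = 5.02e-06). Hdnr did not pass the test, with a log2 fold change of 0.33 (SE 0.17, adjusted p = 0.0865). Of all genes tested, 19.6% were called higher in the cultured lingual part. The Hand2 call was lost with all 24 libraries in 1 fit (adjusted p = 0.273) and restored there without Cap-W replicate 2 (0.0332). The cultured and the bell stage comparisons share the Cap-L libraries. Markers of other cells moved with culture as well. From Cap-L to Cap-L+2D the median sum went from 2994 to 36.5 CPM for the erythroid markers, from 17.1 to 263 CPM for the skeletal muscle markers and from 57.1 to 232 CPM for the macrophage markers. Their part in the culture differences was not tested.

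In the buccal part, culture raised Hand2os1 by a log2 fold change of 1.75 (SE 0.35, edgeR adjusted p = 5.60e-05) and Hand2 by 0.76 (SE 0.33, adjusted p = 0.0438). Hand2os1 passed the low-count filter of this fit through Cap-B+2D, with 21 to 29 counts per library against 4 to 8 in Cap-B. Its p-value is not independent of that filter and is not used as support. The background was 17.9% of genes called higher in the cultured buccal part. The call for Hand2 was lost in 5 of the 9 fits that left out 1 library, those without any one of the 3 Cap-B libraries, Cap-B+2D replicate 1 or Cap-B+2D replicate 2, where the adjusted p reached 0.149. With all 24 libraries in 1 fit, the calls of Hand2 (adjusted p = 0.468) and Hand2os1 (adjusted p = 0.259) were lost, also without Cap-W replicate 2 (0.146 and 0.0638). The skeletal muscle markers went from a median sum of 215 CPM in Cap-B to 3135 CPM in Cap-B+2D, the epithelium markers from 383 to 89.6 CPM and the erythroid markers from 3408 to 36.5 CPM, and their part was not tested. Both buccal comparisons share the Cap-B libraries. Hdnr held 6 counts in Cap-B and 33 in Cap-B+2D, with no overlap between the libraries.

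**Figure D3:**
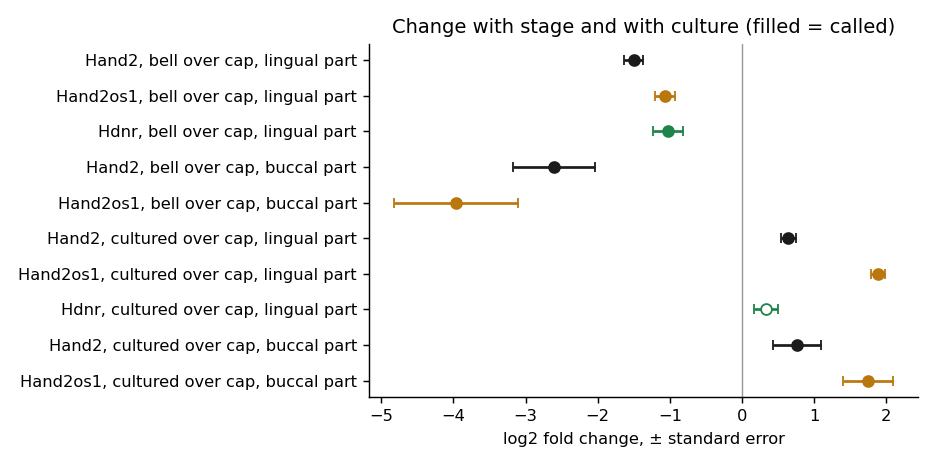
Log2 fold change with its standard error for bell over cap and for cultured over cap in each part (filled points were called, the open point was not). The stage points lie below 0 and the culture points above 0, and the Hand2os1 points lie farther right than those of Hand2 in culture.

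Both genes can also be set against each other within each library, which removes the depth of the library. In Cap-L there were 0.480 ± 0.0715 Hand2os1 counts per Hand2 count (SD, n = 3), and in Cap-L+2D there were 1.13 ± 0.0679, with no overlap. The ratio was 0.552 ± 0.164 in Cap-B and 1.12 ± 0.231 in Cap-B+2D, again with no overlap. Bell-L stood at 0.695 ± 0.266, its libraries overlapping those of Cap-L. Undivided Cap-W, which was not cultured, held 0.321, 1.50 and 1.46 in replicates 1, 2 and 3. Replicates 2 and 3 thus lay above every cultured library, so a ratio near or above 1 was not particular to culture. The ratio is one of counts from genes of different length and is not a ratio of molecules. It was 2.37 times higher in Cap-L+2D than in Cap-L and 2.08 times higher in Cap-B+2D than in Cap-B. In both cases the two-sided exact permutation test gave p = 0.10, the smallest that 3 libraries against 3 allow, and 0.24 after adjustment over the 12 ratio comparisons made. Between the sides, Cap-B over Cap-L was 1.12 and Cap-B+2D over Cap-L+2D was 0.981. These are descriptions, because the side values chose the genes. The side ratios were among the 12 comparisons of the adjustment, but their p-values are not read. The Cap-B ratios rest on 4 to 8 Hand2os1 and 8 to 12 Hand2 counts per library, too few to show that the sides were alike. Hdnr counts per Hand2 count were 0.244 in Cap-L and 0.199 in Cap-L+2D, with exact permutation p = 0.20 and adjusted p = 0.30. On the buccal side they were 0.213 in Cap-B and 0.477 in Cap-B+2D, 2.61 times higher in culture (exact permutation p = 0.20, adjusted p = 0.30). In culture the Hdnr ratio was 2.35 times higher on the buccal than on the lingual side. That too is a description of side values, from 10 to 12 Hdnr counts per Cap-B+2D library.

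**Figure D4:**
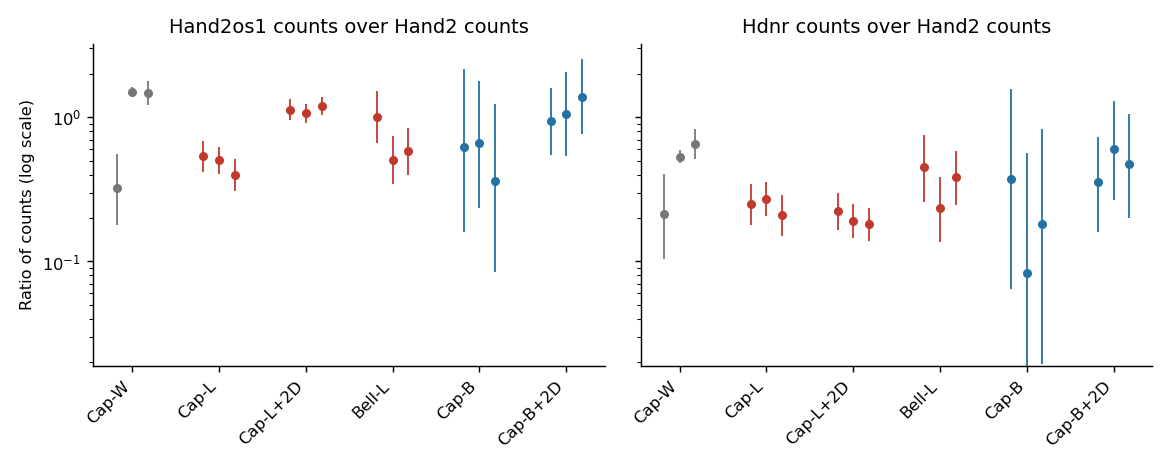
Counts of Hand2os1 (left) and Hdnr (right) over counts of Hand2 in each library (log axis, 95% exact intervals of counting error, some running past the lower edge). Bell-W and Bell-B are left out because most of their libraries held 3 Hand2 counts or fewer. Cultured libraries of both sides lie near 1 for Hand2os1, above those of Cap-L and below Cap-W replicates 2 and 3.

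The change of the side difference with stage and with culture is given as a description, because the side values chose the genes. Interaction tests were run, but a test on these values cannot support the change, so none is read as support. On the log2 scale, the buccal over lingual difference of Hand2 moved by -1.12 from cap to bell stage and by 0.11 from fresh to cultured. That of Hand2os1 moved by -2.90 (SE 0.90) with stage, where Bell-B held 1 count, and by -0.14 with culture. Leaving out 1 library at a time gave -4.71 to -2.44 for the first of these. That of Hdnr moved by 1.62 (SE 0.56) with culture and by 1.78 with stage. Every Cap-B library held 3 Hdnr counts or fewer, and Hdnr stayed below the low-count filter when the buccal libraries were fitted alone, so it entered this fit through its lingual libraries. Among all genes, 32.5% were called for the interaction with stage and 35.5% for that with culture, and nothing is read from these shares about the 3 genes.

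In the undivided cap stage mesenchyme the genes varied far more than in either cap stage part. Hand2 held 2.97, 35.0 and 7.93 CPM in Cap-W replicates 1, 2 and 3, Hand2os1 0.956, 52.4 and 11.6 CPM and Hdnr 0.637, 18.6 and 5.18 CPM. Hand1 held 0, 97 and 23 counts in the same libraries. The 4 genes thus ranked the Cap-W libraries in the same order, with replicate 2 highest and replicate 1 lowest. Replicate 2 held 1057 of the 1292 Hand2 counts, 1583 of the 1863 Hand2os1 counts, 563 of the 692 Hdnr counts and 97 of the 120 Hand1 counts of the group. Its Hand2 level was 4.76 times the mean of Cap-L, and its Hand2os1 level was 15.0 times that mean. Replicates 2 and 3 were both above every Cap-L and Cap-B library for Hand2, Hand2os1 and Hdnr, while replicate 1 lay between the Cap-L and the Cap-B libraries for all 3 genes.

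In the undivided bell stage mesenchyme, Hand2 and Hand2os1 were at or under 3 counts in each library. Bell-W held 0, 0 and 1 Hand2 counts and no Hand2os1 count, where Bell-L held 49 to 85 and 43 to 49 counts. The pooled Hand2 ratio of Bell-L over Bell-W was 212 (37.6 to 8401), and Bell-W overlapped Bell-B. Against a floor of 3 counts per Bell-W library, Hand2 was at least 24.0-fold higher in the lowest Cap-W library and Hand2os1 at least 7.71-fold higher. Hdnr held 9, 3 and 2 counts in Bell-W, so that Bell-L over Bell-W was 5.13 (2.87 to 9.85). The skeletal muscle markers summed to 9.21 to 17.3 CPM in Bell-W, 107.4 to 115 CPM in Bell-L and 795 to 802 CPM in Bell-B. The epithelium markers summed to 494, 571 and 2134 CPM in the Bell-W libraries, so that 1 library stood apart. The part of either in the Bell-W values was not tested.

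Alx4, a homeobox gene of the distal mandible list, ranked the Cap-W libraries in the same order as the Hand genes. It held 35.6, 119 and 52.7 CPM in Cap-W replicates 1, 2 and 3. Its list was split, as Bmp4 had this order too, while Foxf1 was highest in replicate 1 and Isl1 in replicate 3. Ednra, outside the list, also had this order (73.5, 95.1 and 87.2 CPM), so the order was not particular to Alx4 or its list. The dental mesenchyme markers summed to 3683 CPM in replicate 2 and to between 3683 and 4362 CPM over the group. The skeletal muscle markers summed to 14.8 to 19.4 CPM over Cap-W and the epithelium markers to 371 to 551 CPM, with replicate 2 lowest in both. The erythroid markers summed to 2902 CPM in replicate 2 and to 1958 and 2084 CPM in the other Cap-W libraries. The part of any other cell type or tissue in the Cap-W values was not tested.

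The genes of the endothelin input that acts above Hand2 were split between the sides. Of 12 genes, 4 were called lingual and 1 buccal at the cap stage, against backgrounds of 7.10% and 10.4%. Dlx5 held 78.0 ± 5.52 CPM in Cap-L and 51.4 ± 1.64 in Cap-B (log2 fold change of buccal over lingual -0.58, SE 0.05, edgeR adjusted p = 4.75e-08). Dlx6 was lower in the buccal part too (-0.80, SE 0.06, adjusted p = 2.92e-09), and Dlx3 showed the largest lingual excess of the list (-1.06, SE 0.10, adjusted p = 7.05e-08). Ednra, the endothelin receptor, was higher in the buccal part instead, at 165 against 72.2 CPM (1.22, SE 0.05, adjusted p = 5.44e-13). At the bell stage none of the 12 was called lingual and 3 were called buccal, Edn1, Ednra and Dlx4, with a background of 6.00% for the buccal direction. In culture 6 were called lingual and 2 buccal, where both directions had a background of 12.5%. The list medians were -0.04, -0.03 and -0.34 for the cap stage, bell stage and cultured parts, beside -0.01, 0.00 and 0.00 over all genes.

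The bHLH partners and inhibitors were called in both directions. Of 9 genes, 2 were called lingual and 2 buccal at the cap stage, against backgrounds of 7.10% and 10.4%. There was 1 call in each direction at the bell stage (backgrounds of 6.88% and 6.00%), and culture gave 3 lingual and 1 buccal (12.5% each). Tcf4, an E protein that pairs with HAND factors, held 489 CPM in Cap-B and 206 CPM in Cap-L (1.28, SE 0.06, edgeR adjusted p = 3.44e-12), and Twist2 was also buccal (0.64). Id2 and Id4, which encode inhibitors that bind E proteins, were lingual (-0.78 and -0.77). Twist1, the bHLH partner of Hand2, was not called at the cap stage (0.17, adjusted p = 0.00812) and was higher on the lingual side in culture (-0.60, SE 0.04, adjusted p = 6.96e-13). The list medians were -0.27, 0.03 and -0.36.

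Of the 12 distal mandible genes, 6 were called lingual at the cap stage, 3 at the bell stage and 7 in culture, beside backgrounds of 7.10%, 6.88% and 12.5%. In the same order 3, 2 and 2 were called buccal, beside 10.4%, 6.00% and 12.5%. Their medians were -0.33, -0.02 and -1.19. Foxf1, a forkhead gene, led at the cap stage (-3.12). Alx4 held 99.3 ± 4.31 CPM in Cap-L and 28.8 ± 0.456 in Cap-B (-1.76, SE 0.05, edgeR adjusted p = 6.71e-15). Isl1 went the other way and was higher in the buccal part at 5.28 against 0.722 CPM at the cap stage (2.90, adjusted p = 9.09e-11), as was Gata3 (1.72).

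Proximal mandible and maxillary genes were called in both directions, 2 lingual and 3 buccal of 10 tested at the cap stage, then 1 and 3 for the bell stage and 3 and 3 for culture, with medians of -0.23, 0.23 and -0.22. The backgrounds for the lingual direction were 7.10%, 6.88% and 12.5%, and those for the buccal direction 10.4%, 6.00% and 12.5%, here and for the cardiac genes. Pou3f2 and Pou3f3, POU factors, were the largest on the buccal side (3.98 and 2.77). Meis2 and Gsc were lingual (-1.57 and -0.62). Of 11 cardiac and autonomic genes known to act with Hand factors, only 3 passed the filter at the cap stage, 4 at the bell stage and 6 in culture. At the cap stage 2 were called buccal, among them Gata6 (0.87), and Th was called lingual (-1.86). At the bell stage 1 was called, buccal, and in culture 4 were, all buccal, with list medians of 0.87, 0.29 and 1.43.

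**Figure D5:**
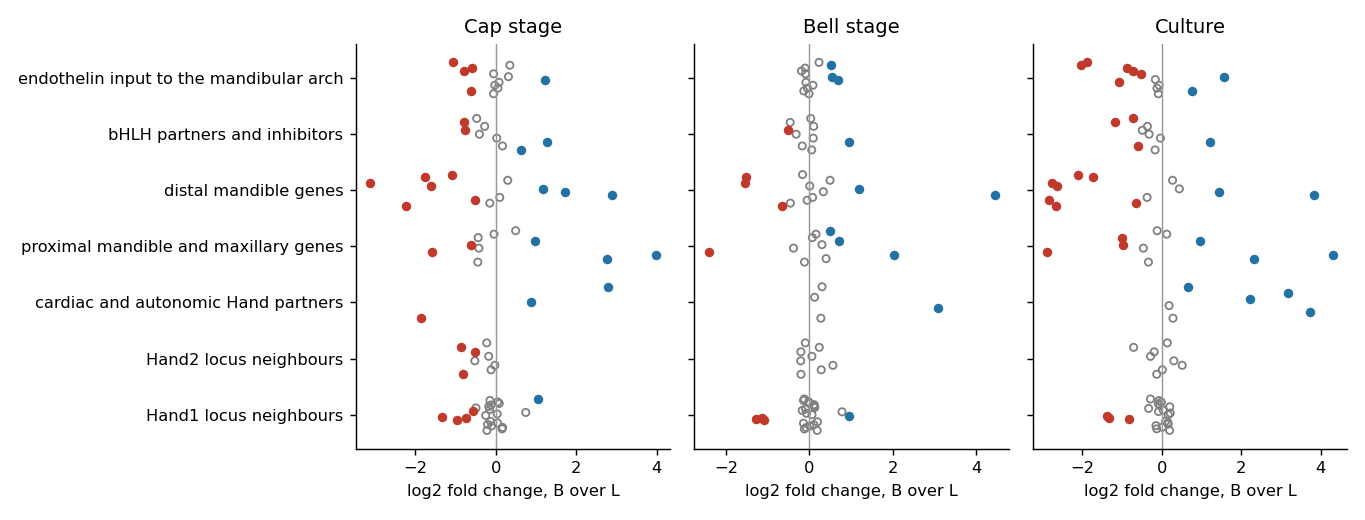
Log2 fold change of buccal over lingual for each tested gene of 7 lists for the cap stage, bell stage and cultured parts (red called lingual, blue called buccal, open not called). The distal mandible genes reach furthest to the left at the cap stage, and the Hand2 locus neighbours have red points only at the cap stage.

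Genes near Hand2 and Hand1 were examined on the same scale. Within 0.5 Mb of Hand2 or Hand1 there were 60 other genes, 25 around Hand2 and 35 around Hand1. Of the 8 tested around Hand2, 3 were called lingual at the cap stage, beside a background of 7.10%, and none in either direction at the bell stage or in culture. They were Sap30 (-0.82), Galnt7 (-0.52) and AW046200 (-0.86), each more than 0.1 Mb away, against -4.04 for Hand2 itself. Gm34030, which shares exon bases with Hdnr, was not among those tested. It held 0.417 CPM in Cap-L and 0.0394 in Cap-B, 0.142 in Bell-L and 0 in Bell-B, and 0.432 and 0.0117 CPM in the cultured lingual and buccal parts. Around Hand1, 22 were tested at the cap stage, with 4 called lingual and 1 buccal, and the calls were 3 and 1 of 23 at the bell stage and 3 and 0 of 21 in culture. The backgrounds were 7.10% and 10.4%, 6.88% and 6.00%, and 12.5% each. Gria1 had the largest lingual excess there (-1.33), followed by Irgm2 (-0.95), Igtp (-0.74) and Gm12245 (-0.57), and 1700047K16Rik was buccal (1.05). The median over the neighbours was -0.37, -0.02 and -0.05 around Hand2 and -0.14, -0.02 and -0.05 around Hand1.

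Markers of other cells moved with the sides as well, where the share of all genes called buccal was 10.4%, 6.00% and 12.5% and that called lingual 7.10%, 6.88% and 12.5% in the cap stage, bell stage and cultured parts. All 8 skeletal muscle markers were called buccal in each setting, with sums of 16.5 to 17.9 CPM in Cap-L and 208 to 219 CPM in Cap-B. Epithelium markers were lingual in 6 of 8 tested at the cap stage, 4 of 9 at the bell stage and 7 of 9 in culture, with 1 buccal in culture, and sums of 510 to 558 CPM in Cap-L and 375 to 391 CPM in Cap-B. Of the glia and neuron markers, 5 of 7, 5 of 7 and 5 of 5 were buccal. No endothelium marker was called at either stage and 6 of 6 were lingual in culture. Erythroid markers were called only in culture, 3 lingual and 1 buccal of 6. Macrophage markers were buccal in 1 of 6 at the cap stage and lingual in 4 of 6 at the bell stage and in culture. Dental mesenchyme markers were lingual in 1 and buccal in 2 of 10 at both stages, and 4 and 1 in culture. The part of these cells in the Hand differences was not tested.

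Over the 24 libraries, the 8 genes whose log2 CPM was most like that of Hand2, of 23401 compared, were Alx4 (Pearson r = 0.949), Sh3rf1 (0.922), Ric3 (0.918), Adgrl2 (0.913), Gm34030 (0.905), Rxfp2 (0.902), Tle4 (0.901) and Foxp2 (0.898). Hand2os1 stood at 0.977 and Hdnr at 0.892. These values are descriptions, because the libraries come in 8 groups of 3 and Gm34030 shares exon bases with Hdnr. Without Cap-W replicate 2, 6 of the 8 stayed among the top 8. With Spearman's rank correlation 4 did, and over the 18 libraries of the parts 1 did, with Alx4 at 0.930.

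Rxfp2, a relaxin family receptor gene, held 24.3 CPM in Cap-L and 1.03 in Cap-B. Foxp2, a forkhead gene, held 14.9 and 5.67 CPM, and Ric3, a chaperone of acetylcholine receptors, held 7.01 and 3.52 CPM. Adgrl2, an adhesion receptor gene, held 669 and 470 CPM, a far smaller difference between the sides than that of Hand2.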

How the data were processed

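The authors deposited 1 table of raw read counts per gene over 24 RNA-seq libraries, made with featureCounts 2.0.0 per the file header, on GRCm39 with Ensembl release 107, by read pairs, without strand and without multi-mapping or shared reads. The submitters' processing notes name Trimmomatic 0.39, Bowtie 1.2.3 and Subread 2.0.3, and they name another library kit than the paper does. No normalized values were used. Symbols came from GENCODE release M39 (56017 of 56748 genes named).

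The genes and lists were chosen with earlier results of these data known. Counts were filtered (filterByExpr), scaled by TMM and tested with edgeR 4.0.16 (quasi-likelihood test, Benjamini-Hochberg adjustment over all genes of the fit), in R 4.3.3. The side contrasts used 6 libraries, the stage and culture contrasts 9 and the interactions 12. Other comparisons were an exact permutation test or exact intervals in scipy 1.17.1. Levels used TMM factors over all 24 libraries, and log2 CPM used a prior count of 2. On simulated data with 200 changed genes, 197 were recovered for the cap stage side contrast over 20653 genes, 196 for the lingual stage contrast over 21425 and 188 for the interaction with stage over 21931. In the same order, 9, 7 and 9 unchanged genes were called. The changed genes were drawn only from genes above a minimum mean level. These rates therefore do not cover the low counts of the Hand genes in the buccal parts.

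Named genes were the members in every library, the called genes with the largest cap stage changes in each list (up to 2 in each direction), Dlx5, Dlx6, Ednra, Alx4 and Twist1, neighbours called at the cap stage (up to 6 at each locus), and the 8 genes most correlated with Hand2. Some genes that this rule names are not reported here. Edn1, Dlx4 and Bmp4 were named after their values were seen. Alternatives were RLE scaling, DESeq2 1.42.0, no filter, a joint fit of all 24 libraries, a block for the replicate number, each library left out in turn, CPM without TMM, unshared exon length and other correlations. The fit of all 24 libraries without Cap-W replicate 2 was added after seeing the data.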

Additional observations from a re-analysis of the deposited data

Results flagged for a closer look

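The side difference of Hand2os1 moved by -2.90 on the log2 scale between the cap and the bell stage. It was singled out because an interaction term differed from 0 in the fit of the lingual and buccal parts. That test drew on the side values that chose the gene, so it is not independent of the choice and is not support. The value is a description, and each adjusted p below shows only how the flag depended on the fit. The pooled lingual to buccal ratio was 14.7 (9.07 to 25.6) at the cap stage and 147 (25.97 to 5850) at the bell stage, where the 3 Bell-B libraries held 1 count together. The interaction missed the threshold without Cap-B replicate 2, Bell-B replicate 1 or Bell-B replicate 2 (edgeR adjusted p of up to 0.0596, values from -4.71 to -2.44 over all libraries left out) and with all 24 libraries in 1 fit (adjusted p = 0.647).

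The side difference of Hdnr moved by 1.62 on the log2 scale with culture, singled out in the same way and with the same limit. The ratio was 21.4 (9.63 to 59.2) before and 6.52 (4.49 to 9.73) after culture, and the Cap-B libraries held 6 counts together, none above 3. Hdnr entered the fit through its lingual libraries, and its value is not used as support. It missed the threshold without Cap-B replicate 2, Cap-B replicate 3 or Cap-B+2D replicate 2 (edgeR adjusted p of up to 0.104), under DESeq2 (adjusted p = 0.0595) and with all 24 libraries in 1 fit (adjusted p = 0.515).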

How the results depend on the processing

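The labels number the replicates 1 to 3 in each group. Same-numbered libraries correlated from -0.470 to 0.487 in their deviations over 6989 genes, so the numbers are not taken as pairs. With the replicate block, 4109 genes were called for bell over cap in the buccal part (4114 without it), and no call of Hand2, Hand2os1 or Hdnr changed.

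Fitting all 24 libraries together gave 4048 genes called for the interaction with culture (7842 otherwise) and 2581 for that with stage (7137), and 4284 and 2829 without Cap-W replicate 2. The log2 fold changes stayed close in the 24-library fit, but these calls were lost: Hand2 bell over cap in the buccal part (-2.60, adjusted p = 0.169), cultured over cap in the buccal part (0.77, adjusted p = 0.468) and in the lingual part (0.64, adjusted p = 0.273); Hand2os1 bell over cap in the buccal part (-3.94, adjusted p = 0.358) and in the lingual part (-1.07, adjusted p = 0.304), cultured over cap in the buccal part (1.76, adjusted p = 0.259) and the interaction with stage (-2.88, adjusted p = 0.647); Hdnr bell over cap in the lingual part (-1.03, adjusted p = 0.266) and the interaction with culture (1.64, adjusted p = 0.515). Leaving out Cap-W replicate 2, an alternative chosen after seeing the data, restored the first Hand2 call (adjusted p = 0.00707) and its lingual culture call (adjusted p = 0.0332). The others stayed lost: Hand2 in buccal culture (0.78, adjusted p = 0.146), Hand2os1 in the buccal part (-3.94, adjusted p = 0.107) and in the lingual part (-1.06, adjusted p = 0.0908) with stage, in buccal culture (1.76, adjusted p = 0.0638) and in the interaction (-2.88, adjusted p = 0.386), and Hdnr in the lingual part (-1.03, adjusted p = 0.111) and in the interaction (1.63, adjusted p = 0.307). DESeq2 lost Hand2 in buccal culture (0.78, adjusted p = 0.128) and the Hdnr interaction with culture (1.66, adjusted p = 0.0595). The cause was not tested further. RLE scaling and no filter on low counts kept each of these calls.

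The side values chose the genes, so the interactions are descriptions. Leaving out 1 library at a time gave 0.63 to 0.88 for Hand2 in buccal culture. The interaction of Hand2 with culture ranged from -0.0152 (without Cap-B+2D replicate 1) to 0.23. With stage, that of Hand2 ranged from -2.86 (without Bell-B replicate 3) to -0.60. That of Hand2os1 with culture ranged from -0.39 to 0.19 (without Cap-B replicate 2). The interactions ranged from -4.71 to -2.44 for Hand2os1 with stage and from 1.31 to 2.06 for Hdnr with culture. For Hdnr with stage the range was 0.72 to 2.26 (without Bell-B replicate 1). Depth limits the buccal values, with 6 Hdnr counts in Cap-B and 1 Hand2os1 count in Bell-B.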
